A study of Bos taurus with 12 samples.

Results

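POU5F1, the gene that encodes the transcription factor OCT4, was followed in 12 RNA-seq libraries from single cattle (Bos taurus) blastocysts. It is 1 row, ENSBTAG00000021111, of the 27607 genes in the count table, chosen because OCT4 was the edited gene and not for its measured level. The embryos were produced in vitro and collected at day 7.5. The edited group comprised 5 embryos lacking exon 1 of OCT4, and the control group 7 wild-type embryos. The series title describes a double electroporation that delivered CRISPR-Cas tools aimed at DNA and at RNA. The labels give no guide, no Cas variant, no sire or sex, and do not say whether wild-type embryos were electroporated. They also do not say whether every cell of an edited embryo carried the deletion. Each embryo's lysate was divided in a pair of tubes, so a library stands for part of 1 blastocyst. The labels name no separate cultures, and the p-values measure the spread between these libraries, amplification included. Handling and genotype cannot be told apart.

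OCT4 is a POU-family factor that binds the octamer motif, often together with SOX2, and sustains the gene programme of pluripotent cells. In the blastocyst it is needed for the identity of the inner cell mass. In cattle the protein is also found in the trophectoderm at the blastocyst stage, unlike in the mouse, where it is soon restricted to the inner cell mass. The first coding exon holds the start codon of the full-length protein and the amino-terminal activation region, and lies ahead of the exons that encode the POU domain. In the RefSeq gene table for assembly ARS-UCD2.0, which is not the build of the count table, POU5F1 lies between LOC112443864 and TCF19. No other symbol there begins with POU5F1.

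POU5F1 transcripts were counted in every edited blastocyst. The 5 edited libraries held 2159, 216, 1382, 657 and 477 reads of the gene, in the order of embryos 1 to 5. The 7 wild-type libraries held 2427, 2155, 3260, 2904, 4337, 3873 and 3912 reads. All 12 values lay far above the floor of 3 reads used here as the limit of detection, which equalled at most 1.39% of the gene's reads in any library. In CPM, the reads of a gene per 1000000 reads of the library, here on unscaled library totals, 3 reads equalled 0.937, 17.8, 0.954, 2.03 and 3.86 CPM in edited embryos 1 to 5. In wild type this floor lay between 0.627 and 1.09 CPM. These counts cover the whole gene and do not separate exon 1 from the other exons, so transcripts that lack exon 1 can still be counted. The row therefore says nothing for or against the deletion, and the genotype labels are unchecked by it.

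Library depth differed between the groups and bears on the precision of each value. Libraries held 168974 to 3202922 reads assigned to genes in the edited and 2762133 to 4781663 in the wild-type group. Edited embryos 1 and 3 lay within the wild-type range of depth, and embryos 4, 5 and 2 below it. Exact Poisson 95% intervals spanned, on either side, 13.6% of the count in edited embryo 2 and 4.24% to 9.08% in the other edited embryos. In wild-type embryos they spanned 2.99% to 4.25%. They cover counting error only, because amplified reads are not independent molecules.

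After scaling by the trimmed mean of M-values (TMM), which corrects library totals for composition, the edited embryos fell on both sides of the wild-type range. POU5F1 stood at 682 CPM in edited embryo 1, 1325 in embryo 2, 472 in embryo 3, 536 in embryo 4 and 739.4 in embryo 5. Wild-type embryos 1 to 7 stood at 723.7, 738.5, 837, 806, 842, 1072 and 968 CPM. Edited embryos 1, 3 and 4 lay below the lowest wild-type embryo, and embryo 5 between wild-type embryos 2 and 4. Edited embryo 2 exceeded all 7 wild-type embryos. Relative to the wild-type mean, the edited embryos had 79.7%, 155%, 55.2%, 62.6% and 86.4% of its level. For comparison, at least 3 of the 5 edited embryos lay below the whole wild-type range in 25.9% of 11926 tested genes, and edited embryo 2 exceeded that range in 18.5%. In a whole embryo, fewer cells that express the gene and less RNA per cell cannot be told apart.

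**Figure D1:**
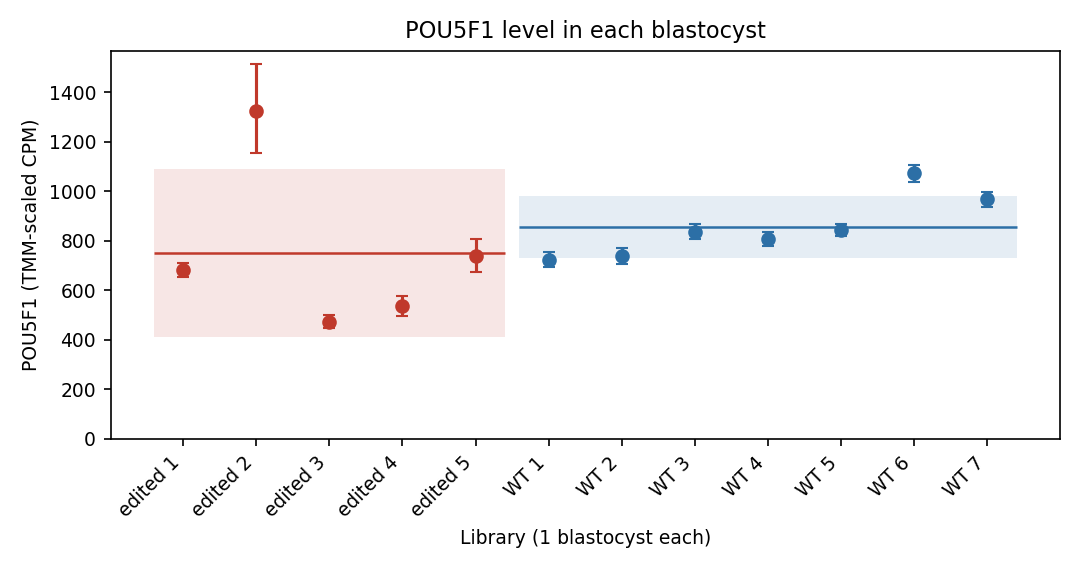
POU5F1 in TMM-scaled CPM (vertical axis, from 0) for each of the 12 libraries (horizontal axis), edited in red and wild type (WT) in blue. Bars are exact Poisson 95% intervals for counting error, and lines and bands are group means ± SD (750.8 ± 338 edited, 855 ± 125 wild type). Edited embryo 2 is the highest library and edited embryo 3 the lowest.

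Ordered by level, 7 of the 11 pairs of neighbouring embryos had overlapping counting intervals. From the lowest level upward the order ran from edited embryos 3 and 4 to edited embryo 1, then wild-type embryos 1 and 2, edited embryo 5, wild-type embryos 4, 3, 5, 7 and 6, and edited embryo 2. Counting intervals did not overlap between edited embryos 4 and 1, wild-type embryos 5 and 7, wild-type embryos 7 and 6, or wild-type embryo 6 and edited embryo 2. The interval of edited embryo 2 was 1154 to 1514 CPM, and that of wild-type embryo 6 was 1039 to 1107 CPM. Edited embryo 5 had 674.5 to 809 CPM, an interval that held the values of edited embryo 1 and of wild-type embryos 1, 2 and 4.

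The group means did not differ beyond the spread between embryos. POU5F1 averaged 750.8 ± 338 CPM in edited embryos (SD, n = 5) and 855 ± 125 CPM in wild-type embryos (SD, n = 7). The difference was -104.7 CPM (exact permutation over 792 splits, two-sided p = 0.472). In the edgeR quasi-likelihood fit over the whole table, the log2 fold change of edited over wild type was -0.20 (SE 0.25), with an unadjusted p of 0.428 and a Benjamini-Hochberg adjusted p of 0.735. Its 95% interval ran from -0.72 to 0.32 on the log2 scale, or from 0.607-fold to 1.25-fold. That interval holds both lower and higher levels in edited embryos. In that fit 3 genes were called higher, 0.0252% of those tested, and 0 lower (edgeR adjusted p under 0.05). At an unadjusted p under 0.05, 915 genes, 7.67%, had lower values. DESeq2 called 364 of 14035 genes lower and 355 higher, POU5F1 not among them (adjusted p = 0.77). Over all 12 embryos the fold change was -0.01 with upper quartile scaling, -0.41 with library size alone, -0.56 with limma voom and quality weights, which weight libraries by their quality, and -0.71 with log2 library size as a covariate. The 95% interval lay below 0 with voom (-0.92 to -0.20) and with the covariate (-1.20 to -0.22), and held 0 with the other 2 scalings. Unadjusted, the limma voom p was 0.00407 and the edgeR p with the covariate 0.00754. The adjusted p of these 4 fits lay between 0.074 and 0.991. The limma voom fit called 109 of 11926 genes lower and 312 higher, and POU5F1 ranked 657 by p. With the covariate edgeR called 0 of 11926 genes lower and 33 higher, and POU5F1 ranked 532 by p. In the edgeR fit with TMM scaling and group as the only term, 39.8% of tested genes had a lower log2 fold change than POU5F1. The median over tested genes was -0.05 there, -0.03 with upper quartile scaling and -0.28 with library size alone. With voom that median was -0.06 and with the covariate 0.11.

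The difference of means moved most when edited embryo 2 was left out. Without it the other 4 edited embryos averaged 607 ± 124 CPM (SD, n = 4), 29.0% below the wild-type mean of 855 ± 125 CPM (SD, n = 7), and the difference of -248.1 CPM gave p = 0.0121 (two-sided exact permutation over 330 splits). The log2 fold change became -0.51 (SE 0.17, 95% interval -0.87 to -0.15), with an edgeR p of 0.00857 and an adjusted p of 0.0862 over 12308 genes. POU5F1 was not among the 201 genes called lower in that fit, 1.63% of those tested, where 451 genes, 3.66%, were called higher. There 20.3% of tested genes had a lower log2 fold change, and 1272 genes, 10.3%, had lower values at an unadjusted p under 0.05. The adjusted p passed the threshold without edited embryo 2 when library size alone was used for scaling (log2 fold change -0.74, edgeR adjusted p = 0.0293), with DESeq2 (-0.52, adjusted p = 0.0343), or when edited embryo 5 was left out as well (-0.62, edgeR adjusted p = 0.0494). With library size alone, 542 of 12308 genes were called lower and 184 higher, and the median log2 fold change of tested genes was -0.25. DESeq2 called 676 of 14897 genes lower and 846 higher. With edited embryo 5 also left out, 203 of 12646 genes were called lower and 496 higher. These settings, and the separate account of edited embryo 2, were chosen after its value was seen.

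Edited embryo 2 differed from the other edited embryos in depth and composition as well as in POU5F1. Its POU5F1 level was 2.18 times the median of the other 4 edited embryos and 1.24 times the highest wild-type embryo, and rested on 216 reads. The library held 168974 reads in all. Of the 11926 tested genes 51.5% had 0 reads in it. With every library thinned at random to 168974 reads, 6084 genes were detected in edited embryo 2, 9966 to 11592 in the other edited embryos and 11410 to 11915 in wild type. The share of reads held by the 50 most abundant genes was 34.0% in this library, 17.2% to 30.1% in the other edited embryos and 15.1% to 17.6% in wild type. The part these differences play in its POU5F1 level was not tested.

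The choice of scaling moved POU5F1 relative to the wild-type range. On unscaled library totals edited embryos 1 to 5 had 674, 1278, 439, 444 and 613 CPM, and wild-type embryos had 767 to 1112 CPM with a median of 896. On that scale 4 of the 5 edited embryos lay below every wild-type embryo, as at least 4 did in 18% of tested genes, and edited embryo 2 again lay above all of them, as it did in 17%. Without edited embryo 2 the difference of means was -363.2 CPM (543 ± 119 in 4 edited against 906 ± 124 in 7 wild-type embryos, SD; two-sided exact permutation p = 0.00303, the smallest that 330 splits can give). Such a complete separation downward occurred in 6.95% of 12308 tested genes on unscaled totals. The TMM factors ranged from 0.833 in edited embryo 4 to 0.996 in edited embryo 1, and from 1.05 to 1.08 in wild type, so TMM scaling raised edited values and lowered wild-type values. Scaled by relative log expression (RLE), edited embryos 1 to 5 had 679, 1467, 456, 504 and 749 CPM, and wild-type embryos 719 to 1086 CPM.

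**Figure D2:**
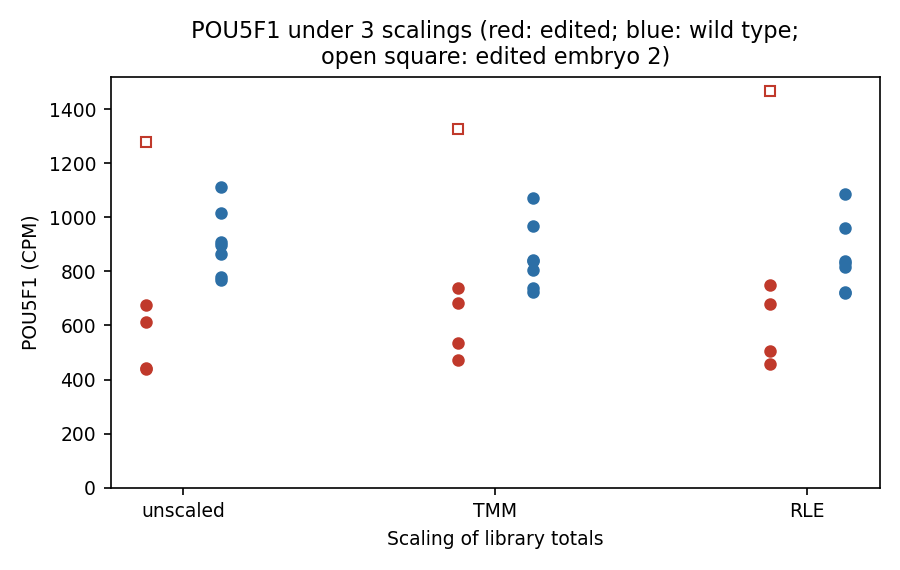
POU5F1 in CPM (vertical axis, from 0) under unscaled totals, TMM and RLE scaling (horizontal axis). Red points are edited embryos, the open square edited embryo 2, and blue points wild type. Edited embryo 2 is the highest of all embryos under each scaling, and edited embryo 5 lies below the wild-type range on unscaled totals only.

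Depth differed little between edited embryos 1 and 3 and wild-type embryo 1. Edited embryos 1 and 3, at 3202922 and 3145326 reads, lay beside wild-type embryo 1 at 3163372 reads, and had 674 and 439 against 767 unscaled CPM. These 2 edited embryos averaged 577 ± 148 TMM-scaled CPM (SD, n = 2) against 855 ± 125 in the wild-type group (SD, n = 7; exact permutation over 36 splits, two-sided p = 0.0556, where 0.0278 is the smallest possible). The log2 fold change of these 2 edited embryos over the 7 wild-type embryos was -0.58 (SE 0.19, edgeR adjusted p = 0.146). In that fit 55 of 13228 genes were called lower, POU5F1 not among them, and 166 higher. The 7 wild-type libraries ran from 2762133 to 4781663 reads, so these 2 tests were not matched for depth. Neither test was planned. Among the shallow edited libraries, embryo 4 had 444 CPM at 1478796 reads, embryo 5 613 CPM at 778114 reads and embryo 2 1278 CPM at 168974 reads. Thinned to 168974 reads each, edited embryos 1 to 5 kept 103, 216, 64, 77 and 92 POU5F1 reads and wild-type embryos 132 to 179.

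**Figure D3:**
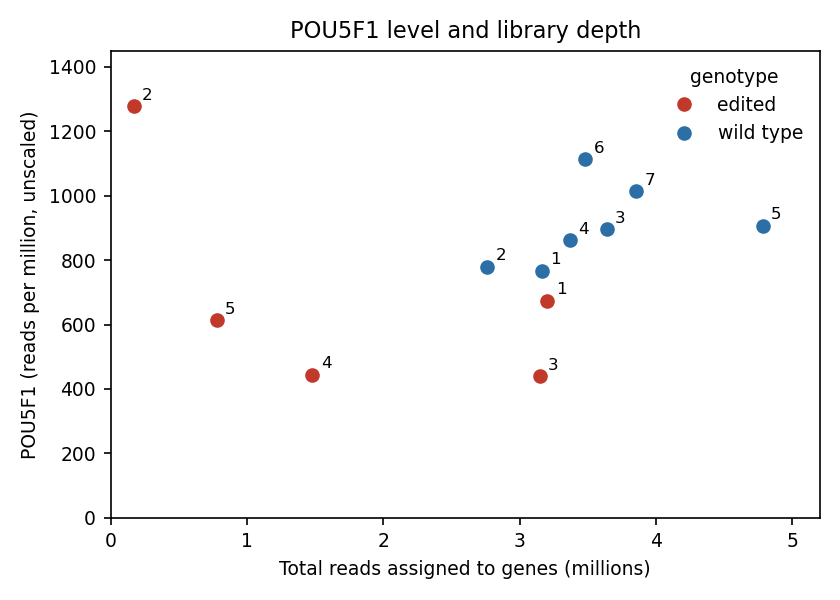
POU5F1 in CPM on unscaled totals (vertical axis, from 0) against the total of reads assigned to genes (horizontal axis), with each point labelled by its embryo number. Edited embryos 1 and 3 lie below wild-type embryo 1 at nearly the same depth, and edited embryo 2 is the shallowest library and the highest point.

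By number of reads, with no correction for transcript length, POU5F1 held rank 70 to 115 among the 16369 to 17760 genes detected in each wild-type library. In edited embryos 1 to 5 it held rank 165, 82, 323, 319 and 154. Edited embryo 2 alone fell within the wild-type ranks, and 6084 genes were detected in that library. The rank uses no library scaling.

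POU5F1 spread over a wider range in edited than in wild-type embryos, a difference that was not tested. The highest edited value was 2.81 times the lowest, and the highest wild-type value 1.48 times the lowest. The coefficient of variation was 45.1% in edited embryos, where the median of tested genes was 68.0% (quartiles 51.8% and 91.5%). In wild-type embryos it was 14.6%, against a median of 25.3% (quartiles 17.3% and 38.8%). Without edited embryo 2 it was 20.5%, against a median of 42.3%. POU5F1 lay below the lower quartile in both groups, with 18.7% and 16.0% of genes at a lower coefficient of variation in edited and wild-type embryos. Genes were not matched for read number here.

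**Figure D4:**
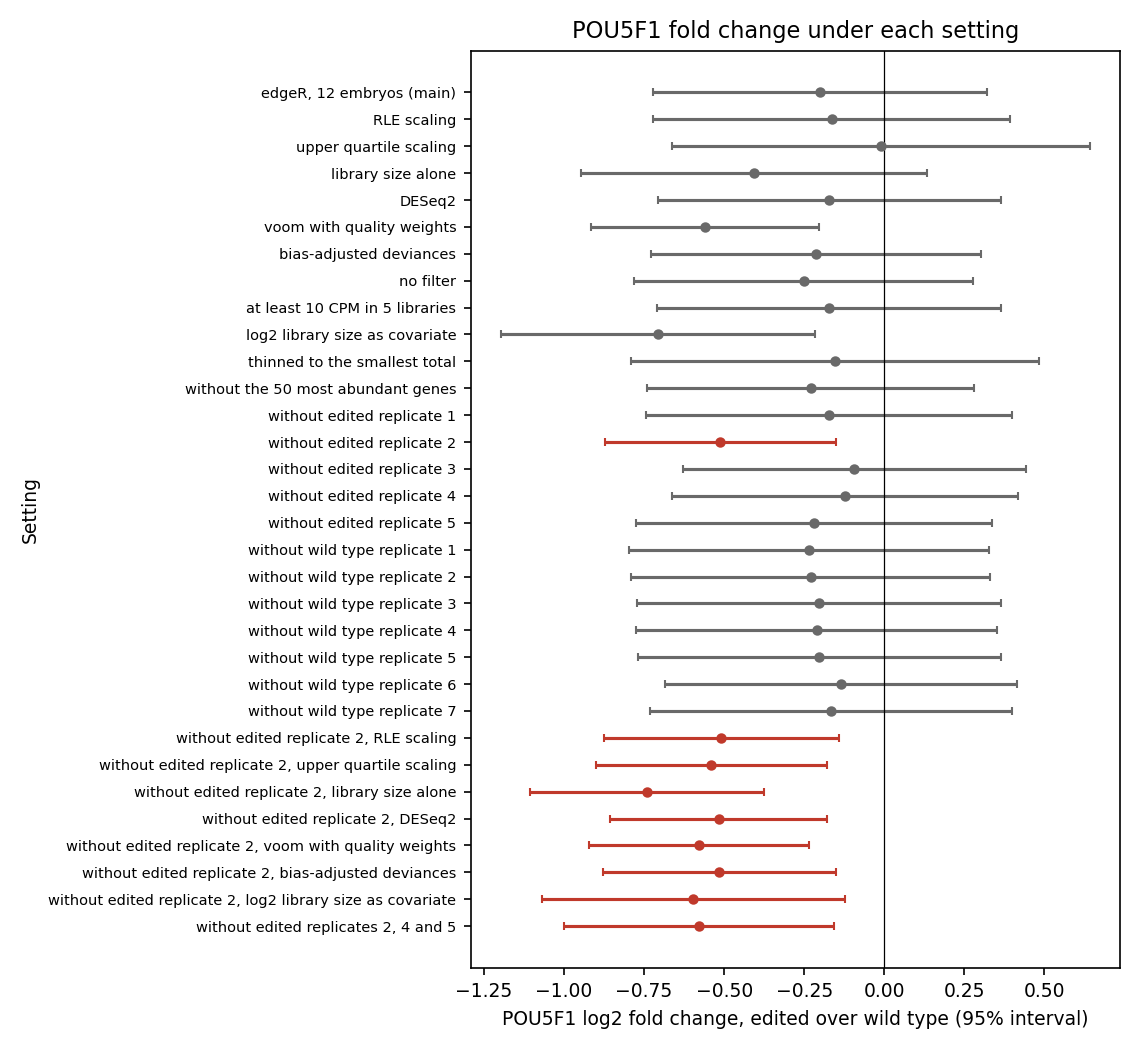
Log2 fold change of POU5F1, edited over wild type (horizontal axis), with its 95% interval under the settings listed (vertical axis). Red marks settings without edited embryo 2, drawn between -0.51 and -0.74, and fits that left out 1 further embryo in turn are not drawn (-0.62 to -0.42). With all 12 embryos it lies between -0.01 and -0.71.

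Genes whose levels ran most like POU5F1 across the 12 embryos were sought by Pearson correlation of log2 CPM, as a description with no test, since all genes share library depth and composition. ENSBTAG00000009067 (r = 0.92) and ENSBTAG00000007867 (r = 0.90) were the closest of 11925 genes. ENSBTAG00000009067 had 386 CPM in edited embryo 2, 122 to 199.96 CPM in the other edited embryos and 179 to 254 CPM in wild type. Like POU5F1, it was highest in edited embryo 2 and lowest in edited embryo 3. ENSBTAG00000007867 had 10.9 to 36.8 CPM in edited and 15.5 to 26.9 CPM in wild-type embryos, and its 36.8 CPM in edited embryo 2 rested on 6 reads. The most opposed genes were ENSBTAG00000002028 (r = -0.92), with 0 reads in edited embryo 2, and ENSBTAG00000016320 (r = -0.90). Over all other genes the median correlation was -0.37 (quartiles -0.57 and 0.04). Over the 11 embryos without edited embryo 2 the median was 0.06, and the same 4 genes had r = 0.89, 0.85, -0.89 and -0.86. These 11 embryos are among the 12 by which the 4 genes were chosen, and other genes reached 0.93 and -0.97 over them. Within the 7 wild-type embryos the 4 genes had r = 0.67, 0.67, -0.79 and -0.21, where other genes reached 0.987 and -0.995.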

How the data were processed

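RNA was measured in 12 single-blastocyst libraries, 5 edited and 7 wild type, grouped by the genotype label. The deposited values are raw counts of reads over each whole gene, with no normalisation. The submitters' processing notes list HISAT2 2.2.1, SAMtools 1.17, featureCounts 2.0.1 and, as genome, ARS-UCD1.2 (bosTau9). Per the labels' protocols the cDNA amplification followed mcSCRB-seq with modifications. The sources used here do not give the annotation release, the strand setting or any collapsing of molecules, so reads of overlapping or antisense genes and of near-identical copies are uncertain.

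The reference gene table matched 0 identifiers to a symbol. That ENSBTAG00000021111 is bovine POU5F1 was given with the choice of gene and was not checked here. The lists of pluripotency partners, POU genes and cell type markers were therefore not run, and no sequence was printed.

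The test was the quasi-likelihood test of edgeR 4.0.16, run under R 4.3.3 (TMM, filterByExpr, robust glmQLFit, glmQLFTest, group as the only term), Benjamini-Hochberg adjusted at 0.05 over all genes passing the filter. SEs are the absolute log2 fold change over the square root of F, and 95% intervals use the matching t quantile. Log2 CPM used a prior count of 2. Means were compared by exact permutation (Python 3.11.15, scipy 1.17.1). DESeq2 1.42.0 and limma 3.58.1 served as alternatives, and the edgeR script was tested on simulated data. The gene, lists and tests were chosen with earlier results of these data known. The rule named POU5F1 and the 2 genes with the highest and the 2 with the lowest correlation to it, over 12 and over 7 wild-type embryos. The second set is described by its extreme correlations only.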

Additional observations from a re-analysis of the deposited data

Results flagged for a closer look

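In POU5F1, edited embryo 2 lay far from the rest of its group on 3 of the 6 measures examined. In the wild-type group the same 6 measures set no embryo apart. On unscaled totals it had 1278 CPM, with a gap to the next embryo of 0.720 of the group's range against a critical value of 0.71. Under RLE scaling it had 1467 CPM (0.711 of the range), and with all libraries thinned to 168974 reads it had 216 reads (0.743). On the TMM scale the gap was 0.687 of the range, on log2 CPM 0.565 and by rank 0.299, and none of these passed. The 3 measures that passed share the same reads, and chance singles out about 1 in 20 groups.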

How the results depend on the processing

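With all 12 embryos the log2 fold change of POU5F1 was negative under all 11 alternatives (-0.71 to -0.01) and its adjusted p stayed above 0.05 (0.074 with voom and quality weights to 0.991 with upper quartile scaling). Leaving out each embryo gave -0.51 to -0.094, the former without edited embryo 2. In the 18 further fits without edited embryo 2 it lay between -0.74 and -0.42, and 3 of them passed the threshold: library size alone (-0.74), DESeq2 (-0.52) and edited embryo 5 also left out (-0.62). The difference of means by exact permutation did not pass on any other scale with all 12 embryos (p = 0.117 to 0.655). Leaving out each embryo gave -248.1 to -35.0 CPM, and only the fit without edited embryo 2 passed. Without that embryo the difference was -256.0 CPM with TMM refitted, -363.2 on raw totals, -255.0 on RLE-scaled totals and -398.2 with libraries thinned, and all 4 passed (exact permutation p = 0.00909, 0.00303, 0.0121 and 0.00303). On raw totals 6.95% of 12308 tested genes had every remaining edited embryo below every wild-type embryo, as POU5F1 did. With edited embryos 4 and 5 also left out the difference did not pass (exact permutation p = 0.0556). The 18 further fits and these permutation settings were chosen after the value of edited embryo 2 was seen. Causes of the changes between settings were not tested. No paired analysis was possible because the labels give no replicate numbers, and the embryo numbers used here only name embryos within a group. Depth limits edited embryo 2 most, where 3 reads equal 18.4 TMM-scaled CPM.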
